A study of Mus musculus with 12 samples.

Results

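Integrin genes outside the gut-homing pair were followed in alloreactive CD4+ T cells exposed to ligands of the aryl hydrocarbon receptor. This receptor, AhR, is a transcription factor that binds dioxins and other aromatic compounds. The 10 genes encode the β chains Itgb1, Itgb2 and Itgb3 and the α chains Itga1, Itga2, Itga5, Itga6, Itgal, Itgav and Itga2b. They were taken by name, each by its single-symbol probe set, from the 19938 genes of the deposited table, and all 10 were measured, each by 1 probe set. Donor spleen cells of C57Bl/6 mice, stained with the division dye CFSE, were injected into B6D2F1 hosts, in which donor T cells attack host tissue (graft-versus-host disease). Donor and host mice were 10 to 12 weeks old, and every group, vehicle included, received the same graft. Hosts received vehicle on days 0 and 1, 1 dose of TCDD (a persistent chlorinated dioxin), 15 µg/kg, on day 0, or 2 doses of Cl-BBQ (another AhR ligand), 2 mg/kg, on days 0 and 1. All were given into the peritoneal cavity of the host, so host cells were dosed along with the donor cells. On day 2 (48 hr) CD4+ cells that had divided at least 2 times were isolated from spleen and lymph node with magnetic beads and flow sorting, and total RNA of each of 4 replicates per group went onto 1 array.

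Integrins are cell surface adhesion receptors made of 1 α and 1 β chain, and a chain reaches the surface only with a partner. The β1 chain pairs with many α chains to bind collagen, laminin and fibronectin in the matrix, whereas the β2 chain is restricted to white blood cells and, with αL, forms LFA-1, which holds T cells to antigen-presenting cells and vessel walls. The β3 chain pairs with αv in many cells and with αIIb in platelets. Activated T cells change their set of matrix-binding integrins, and α2 (CD49b) marks subsets of NK cells and of regulatory type 1 T cells.

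Values are log2 intensities, on which a difference of 1 is a 2-fold change, and each group mean is given ± SD of 4 arrays. The medians of the arrays differed little (7.11 to 7.24). Of 13 measured CD4 T cell markers, 0 were called in any comparison (limma; 1 with TCDD, 0 with Cl-BBQ and 0 between the ligands had an unadjusted p under 0.05), and Cd4 itself lay between 12.29 and 12.55 on all 12 arrays. Exposure was checked by Cyp1b1, a cytochrome P450 gene induced through AhR. It lay at 6.25 to 6.57 in vehicle, 9.67 to 9.92 with TCDD and 7.89 to 8.24 in 3 Cl-BBQ arrays, but at 5.93 in Cl-BBQ replicate 3, below every vehicle array. Of 5 such exposure genes (Cyp1b1, Cyp1a1, Ahrr, Tiparp and Nqo1), 5 were called higher with TCDD and 0 with Cl-BBQ (limma). With Cl-BBQ all 5 were higher by estimate (0.18 to 1.13), 4 had an unadjusted p under 0.05, and 2 did not overlap vehicle. Without Cl-BBQ replicate 3, Cyp1b1 was higher with Cl-BBQ by 1.65 (adjusted p = 3.5e-06). The other exposure genes did not all set that array apart. On it Ahrr (5.95, against 5.73 to 5.88 in vehicle) and Nqo1 (6.59, against 6.10 to 6.52) lay above all vehicle arrays. Cyp1a1 (6.43) lay within the vehicle range and Tiparp (9.25) level with its lower end. In the fit with array weights its weight, 1.68, was the highest of the Cl-BBQ group. Called results for Cl-BBQ are given with and without that array on account of its Cyp1b1. A bulk measurement cannot tell fewer cells expressing a gene from less RNA per cell.

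Both ligands moved the same members past the test: Itgb1 fell and Itga2 rose. A gene was called where its adjusted p from limma was under 0.05 over all 19938 genes. With TCDD 2 of 10 genes were called, 1 higher and 1 lower, where 1.24% of all genes were called, 0.873% higher and 0.366% lower. With Cl-BBQ 2 of 10 were called, again 1 in each direction, where 0.196% of all genes were called, 0.145% higher and 0.0502% lower. The TCDD count was 2 whichever array was left out. The Cl-BBQ count rested on single arrays: it was 0 without Cl-BBQ replicate 2 or vehicle replicate 4, 1 without Cl-BBQ replicate 4, vehicle replicate 1 or vehicle replicate 3, 2 without Cl-BBQ replicate 3 or vehicle replicate 2, and 3 without Cl-BBQ replicate 1. Over all genes the number called with Cl-BBQ, 39 in the full fit, ran from 3 to 61 in the same fits. The median log2 difference of the 10 was 0.07 with TCDD and 0.09 with Cl-BBQ, beside 0.004 and 0.011 over all genes. An unadjusted p under 0.05 was found for 6 of the 10 genes with TCDD, against 8.69% of all genes, and for 4 with Cl-BBQ, against 7.91%. Treated and vehicle arrays did not overlap for 5 of the 10 with TCDD (5.8% of all genes) and for 4 with Cl-BBQ (3.85%). Both comparisons use the same 4 vehicle arrays, and the genes were picked with earlier results of these arrays known, so these shares describe the genes and are no independent support.

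**Figure D1:**
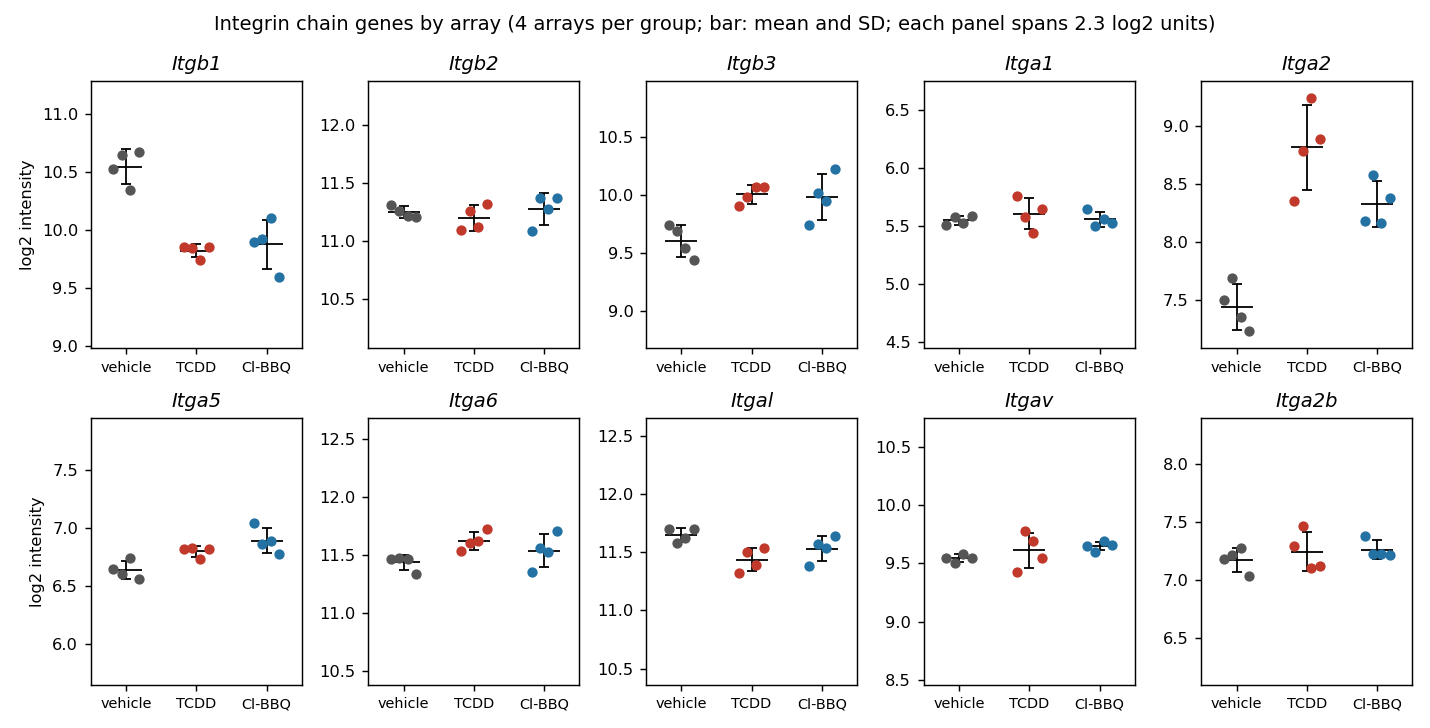
Log2 intensity of each of the 10 integrin genes (vertical axis) on every array of the vehicle, TCDD and Cl-BBQ groups; points are arrays in the order of replicates 1 to 4, and bars give the mean and SD. All panels span the same number of log2 units, so Itgb1 (9.59 to 10.67 over all arrays) and Itga2 (7.23 to 9.24) are seen to vary most, while Itgb2 stays between 11.08 and 11.37.

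Itgb1 encodes the β1 chain, the shared partner of the matrix-binding α chains. Its promoter stretch is shown because it is the member that fell with both ligands. It holds the 250 bases before the annotated start, on the plus strand of GRCm38.p6 at chr8:128685404-128685653 (RefSeq), and is printed 5′ to 3′ with no base in capitals, since the AhR core motif GCGTG was not found in it on either strand.
Itgb1: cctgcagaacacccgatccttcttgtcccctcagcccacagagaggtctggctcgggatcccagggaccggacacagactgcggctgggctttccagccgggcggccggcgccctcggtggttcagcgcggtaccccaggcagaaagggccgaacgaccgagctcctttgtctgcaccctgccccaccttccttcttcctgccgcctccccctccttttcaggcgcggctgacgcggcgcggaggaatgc

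The Itgb1 probe set (10576661) read 10.52, 10.64, 10.34 and 10.67 in vehicle replicates 1 to 4. With TCDD it read 9.85, 9.84, 9.74 and 9.85, and with Cl-BBQ 9.89, 9.92, 10.10 and 9.59. All 8 arrays of treated hosts lay below all vehicle arrays, and the TCDD arrays spread less than the others. TCDD lowered Itgb1 from 10.54 ± 0.15 to 9.82 ± 0.05 (n = 4), a log2 difference of −0.72 ± 0.10 (SE; 95% interval −0.93 to −0.51), or 1.65-fold lower (limma adjusted p = 0.000667). With Cl-BBQ it fell to 9.88 ± 0.21, a difference of −0.67 ± 0.10 (interval −0.87 to −0.46; adjusted p = 0.0135). Replicate 3 of Cl-BBQ, with its low Cyp1b1, held the highest Itgb1 of its group. Without that array the difference was −0.74 (adjusted p = 0.00409). The Cl-BBQ call was lost without Cl-BBQ replicate 2 (−0.68, adjusted p = 0.0511), without vehicle replicate 4 (−0.62, adjusted p = 0.0673) and in a fit of only the Cl-BBQ and vehicle arrays (−0.67, adjusted p = 0.0619), whereas the TCDD call held under all 16 alternatives tried, with adjusted p from 6.62e-05 to 0.00557.

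Neither of the other β chains was called. Itgb2, the β2 chain of LFA-1, lay at 11.20 to 11.31 in vehicle, 11.09 to 11.32 with TCDD and 11.08 to 11.37 with Cl-BBQ. The groups overlapped, and the log2 difference was −0.05 with TCDD (interval −0.19 to 0.10) and 0.03 with Cl-BBQ (interval −0.12 to 0.17).

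Itgb3, the β3 chain, read 9.74, 9.69, 9.54 and 9.44 in vehicle, 9.90, 9.98, 10.07 and 10.07 with TCDD, and 9.74, 10.02, 9.95 and 10.22 with Cl-BBQ. The TCDD arrays lay above all vehicle arrays, while Cl-BBQ replicate 1 lay level with the highest of them. The mean was 9.60 ± 0.14 in vehicle, 10.00 ± 0.08 with TCDD and 9.98 ± 0.20 with Cl-BBQ. The log2 difference was 0.40 with TCDD (interval 0.20 to 0.60; limma adjusted p = 0.053) and 0.38 with Cl-BBQ (interval 0.18 to 0.58; adjusted p = 0.159), so neither passed over all genes. With TCDD the adjusted p of Itgb3 crossed the threshold under 5 of 16 alternatives, with differences from 0.39 to 0.43, among them a fit that blocked on replicate number (adjusted p = 0.0389). With Cl-BBQ it did so under 2, quantile normalization (0.42, adjusted p = 0.0403) and the fit without Cl-BBQ replicate 1 (0.46, adjusted p = 0.0358).

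Itga2 encodes α2, which joins β1 to form a collagen receptor. Its promoter stretch is shown because it rose with both ligands and was the only one of 6 integrin genes with a RefSeq promoter window in which GCGTG was found. The 250 bases before the start lie on the minus strand of GRCm38.p6 at chr13:114932101-114932350, and capitals mark the GCGTG match, 46 to 42 bases before the start.
Itga2: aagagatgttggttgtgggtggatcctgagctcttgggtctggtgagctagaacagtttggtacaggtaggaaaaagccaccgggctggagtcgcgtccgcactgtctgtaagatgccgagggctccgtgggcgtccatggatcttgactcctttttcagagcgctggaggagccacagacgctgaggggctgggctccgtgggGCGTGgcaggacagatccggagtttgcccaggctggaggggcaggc

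The motif search covered 250 bases before and 50 after the start, on both strands. GCGTG was present in 32.4% of all 32851 promoter windows, and the longer form TNGCGTG, which contains it, in 5.1% of them and in 0 of the 6 windows. A match is a description of the letters and no evidence of binding.

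The Itga2 probe set (10412267) read 7.50, 7.69, 7.35 and 7.23 in vehicle. It read 8.35, 8.78, 9.24 and 8.89 with TCDD, and 8.18, 8.58, 8.16 and 8.38 with Cl-BBQ. Every array of a treated host was above every vehicle array, and TCDD replicate 1 lay within the range of the Cl-BBQ arrays. From 7.44 ± 0.20 in vehicle, Itga2 rose to 8.82 ± 0.37 with TCDD, a log2 difference of 1.37 ± 0.15 (SE; interval 1.05 to 1.70), or 2.59-fold (limma adjusted p = 0.000165). With Cl-BBQ it rose to 8.32 ± 0.20, a difference of 0.88 ± 0.15 (interval 0.55 to 1.21), or 1.84-fold (adjusted p = 0.0335). Without Cl-BBQ replicate 3 this difference was 0.94 (adjusted p = 0.0374). The TCDD call held under all 16 alternatives, with differences from 1.23 to 1.53. The Cl-BBQ call was lost in 6 of 16: without Cl-BBQ replicates 2 (adjusted p = 0.115) or 4 (0.0769), without vehicle replicates 1 (0.0771), 3 (0.0951) or 4 (0.139), and without an intensity trend in the variance model (0.0551). The difference itself moved little in these, from 0.80 to 0.90.

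Itga1, the α1 chain of the other classical collagen receptor and the genomic neighbour of Itga2, was not called with either ligand. It lay at 5.51 to 5.59 in vehicle, 5.44 to 5.76 with TCDD and 5.50 to 5.65 with Cl-BBQ. The differences were 0.06 (interval −0.09 to 0.20) and 0.01 (interval −0.13 to 0.16), and this probe set was dim enough to be removed by a filter on low values.

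The α chains of fibronectin and laminin receptors differed from vehicle by less. Itga5, whose product with β1 is the classical fibronectin receptor, read 6.65, 6.60, 6.74 and 6.56 in vehicle, 6.82, 6.83, 6.73 and 6.82 with TCDD, and 7.04, 6.86, 6.89 and 6.78 with Cl-BBQ. All Cl-BBQ arrays were above all vehicle arrays, and 1 TCDD array was not. The difference was 0.26 with Cl-BBQ (interval 0.12 to 0.40; limma adjusted p = 0.176) and 0.16 with TCDD (interval 0.02 to 0.30; adjusted p = 0.457). Itga6, a laminin receptor chain, lay at 11.34 to 11.48 in vehicle, 11.54 to 11.73 with TCDD and 11.36 to 11.71 with Cl-BBQ. TCDD and vehicle arrays did not overlap, yet the difference of 0.19 (interval 0.05 to 0.33; adjusted p = 0.308) missed the threshold, as did that of 0.10 with Cl-BBQ (interval −0.04 to 0.24). Itgav, which binds vitronectin and other ligands with several β chains, lay at 9.50 to 9.58, 9.43 to 9.78 and 9.60 to 9.69 in vehicle, TCDD and Cl-BBQ arrays. Its differences were 0.07 (interval −0.09 to 0.22) and 0.10 (interval −0.05 to 0.26), although the Cl-BBQ arrays all lay just above the vehicle arrays.

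Itgal, the αL chain of LFA-1, read 11.70, 11.58, 11.62 and 11.70 in vehicle, 11.32, 11.50, 11.39 and 11.54 with TCDD, and 11.38, 11.57, 11.54 and 11.64 with Cl-BBQ. The TCDD arrays were all below the vehicle arrays, and the Cl-BBQ arrays overlapped them. The difference was −0.21 with TCDD (interval −0.34 to −0.08; limma adjusted p = 0.143) and −0.12 with Cl-BBQ (interval −0.25 to 0.01; adjusted p = 0.661). The TCDD difference of Itgal passed when replicate numbers entered as a block (adjusted p = 0.0455) and after quantile normalization (adjusted p = 0.0479), and under none of the other 14 alternatives. Itga2b, the αIIb chain known from platelets, lay at 7.03 to 7.27 in vehicle, 7.10 to 7.46 with TCDD and 7.21 to 7.38 with Cl-BBQ, with differences of 0.07 (interval −0.11 to 0.25) and 0.08 (interval −0.09 to 0.26).

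**Figure D2:**
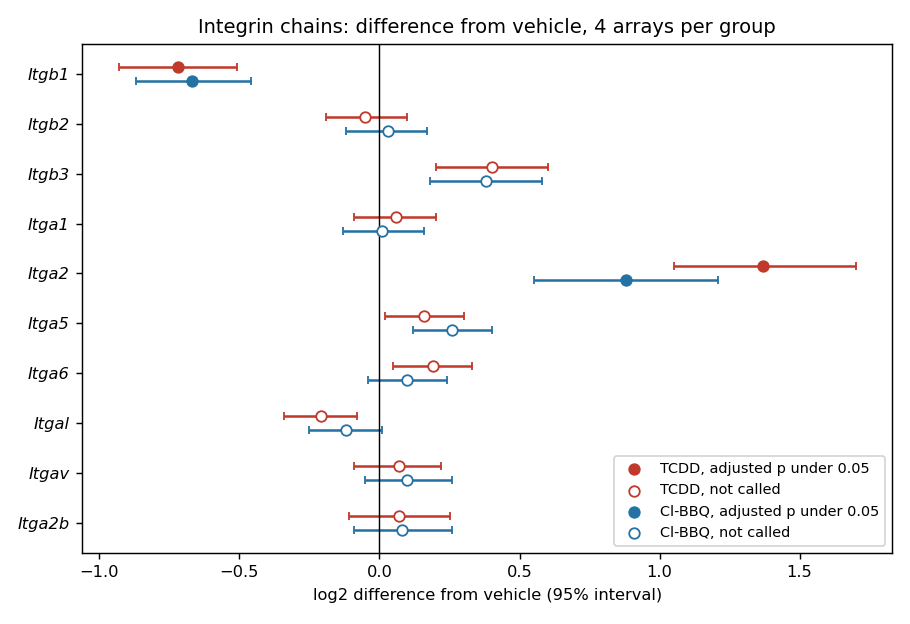
Log2 difference from vehicle (horizontal axis) of the 10 integrin genes with TCDD (red) and Cl-BBQ (blue), with 95% intervals from the fit across all genes; filled points have an adjusted p under 0.05. Itgb1 lies at −0.72 and −0.67 and Itga2 at 1.37 and 0.88, and the other 8 genes lie between −0.21 and 0.40.

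Set beside each other as known partners, the chains of a receptor did not always share a direction. In α2β1 the α chain gene was higher (1.37 with TCDD, 0.88 with Cl-BBQ) and the β chain gene lower (−0.72 and −0.67). The other α chains listed here that pair with β1, namely Itga1, Itga5, Itga6 and Itgav, had differences from 0.01 to 0.26 with either ligand. In LFA-1 the values were −0.21 and −0.12 for Itgal against −0.05 and 0.03 for Itgb2. In αvβ3 they were 0.07 and 0.10 for Itgav against 0.40 and 0.38 for Itgb3, and αIIbβ3 joins the same β chain to Itga2b at 0.07 and 0.08. These are RNA levels, and surface receptors were not measured here.

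Ordered by group mean, Itga2, Itgb3, Itga1 and Itga6 ran from TCDD through Cl-BBQ to vehicle, and Itgb1 and Itgal ran the opposite way. Itga5, Itgav and Itga2b were highest with Cl-BBQ and lowest in vehicle, and Itgb2 was highest with Cl-BBQ and lowest with TCDD. The TCDD and Cl-BBQ arrays overlapped in all 10 genes. In the test of the difference between the ligands, 0 of 10 genes were called, where 0.015% of all genes were, 0 did not overlap, against 2.04% of all genes, and 1 had an unadjusted p under 0.05, against 2.99% (limma). That gene was Itga2, higher with TCDD by 0.49 (interval 0.17 to 0.82; adjusted p = 1). For Itgb1 the difference was −0.05 (interval −0.26 to 0.15) and for Itgb3 0.02 (interval −0.18 to 0.22). TCDD was given once and Cl-BBQ on 2 days, at other doses, so these values do not compare the compounds at a matched exposure, and a missed threshold does not show that they act alike.

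Genes around these receptors were taken from lists of integrin biology that cover further chains, regulators of activation, adhesion signalling, membrane partners and ligands. With TCDD 0.873% of all genes were called higher and 0.366% lower. Of 16 other integrin chains, 1 was called higher and 0 lower with TCDD, and the remaining 15 did not pass (median difference 0.06). That gene was Itgae, which encodes the αE chain (CD103), at 0.84 (1.78-fold; limma adjusted p = 0.00606). It read 6.99, 7.01, 7.27 and 7.27 in vehicle and 7.42, 7.97, 8.38 and 8.12 with TCDD, so the groups did not overlap. With Cl-BBQ it lay at 7.37 to 7.55, a difference of 0.31 (adjusted p = 0.629), and the difference between the ligands was 0.52 (adjusted p = 1). The 15 chains that were not called lay between Itga9, the α9 chain and a β1 partner (−0.41 with TCDD and −0.36 with Cl-BBQ; adjusted p = 0.648 and 0.715), and Itgb7, the β7 chain of the gut-homing receptors (0.30 and 0.33; adjusted p = 0.269 and 0.32). Itga9 and Itgb7 are named here after their values were seen.

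Among 21 genes that regulate integrin activation from inside the cell, a list not sorted by direction of effect, 2 were called higher with TCDD. The other 19 were not called (median of the 21, 0.06), where 0.873% of all genes were called higher. Rasgrp2, an exchange factor that activates the small GTPase Rap1, rose 1.45-fold (log2 difference 0.53 ± 0.09, SE; limma adjusted p = 0.00432), from 10.23, 10.27, 9.87 and 10.03 to 10.57, 10.67, 10.66 and 10.63. With Cl-BBQ it read 10.40, 10.72, 10.44 and 10.64, a difference of 0.45 (adjusted p = 0.0594). Rap1b, a Rap1 GTPase itself, rose by 0.13 (1.10-fold; adjusted p = 0.0309) with TCDD, a shift that is small but larger than its spread, since vehicle arrays lay at 12.72 to 12.78 and TCDD arrays at 12.84 to 12.91. The Rap1b call was lost under 8 of 16 alternatives, among them 6 of the 8 fits with an array left out (adjusted p from 0.0657 to 0.143), whereas Rasgrp2 and Itgae kept theirs under all 16.

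Of 13 membrane partners 1 was called lower with TCDD, where 0.366% of all genes were. Cd226, an adhesion receptor that associates with LFA-1, was lower by 0.32 (1.25-fold; limma adjusted p = 0.0476). This call was lost under 10 of 16 alternatives, 7 of them with an array left out (adjusted p from 0.0597 to 0.149). Of 29 genes of integrin ligands 1 was called higher, where 0.873% of all genes were. It was Lamc1, the laminin γ1 chain, higher by 0.52 (1.43-fold, limma adjusted p = 0.00948). None of 25 genes of adhesion signalling and the actin link was called with TCDD, and their differences lay between −0.06 and 0.18. With TCDD an unadjusted p under 0.05 (limma) was found for 4 of 16 other chains, 3 of 21 regulators of activation and 1 of 25 signalling genes. It was also found for 2 of 13 membrane partners and 4 of 29 ligand genes, against 8.69% of all genes. With Cl-BBQ none of these 5 lists held a called gene, where 0.196% of all genes were called. There an unadjusted p under 0.05 (limma) was found for 5 of 16 other chains, 3 of 21 regulators of activation and 0 of 25 signalling genes. It was found for 3 of 13 membrane partners and 1 of 29 ligand genes, and for 7.91% of all genes. Between the ligands none was called either, and 1, 2, 0, 1 and 2 genes of the lists in this order had an unadjusted p under 0.05, against 2.99% of all genes.

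**Figure D3:**
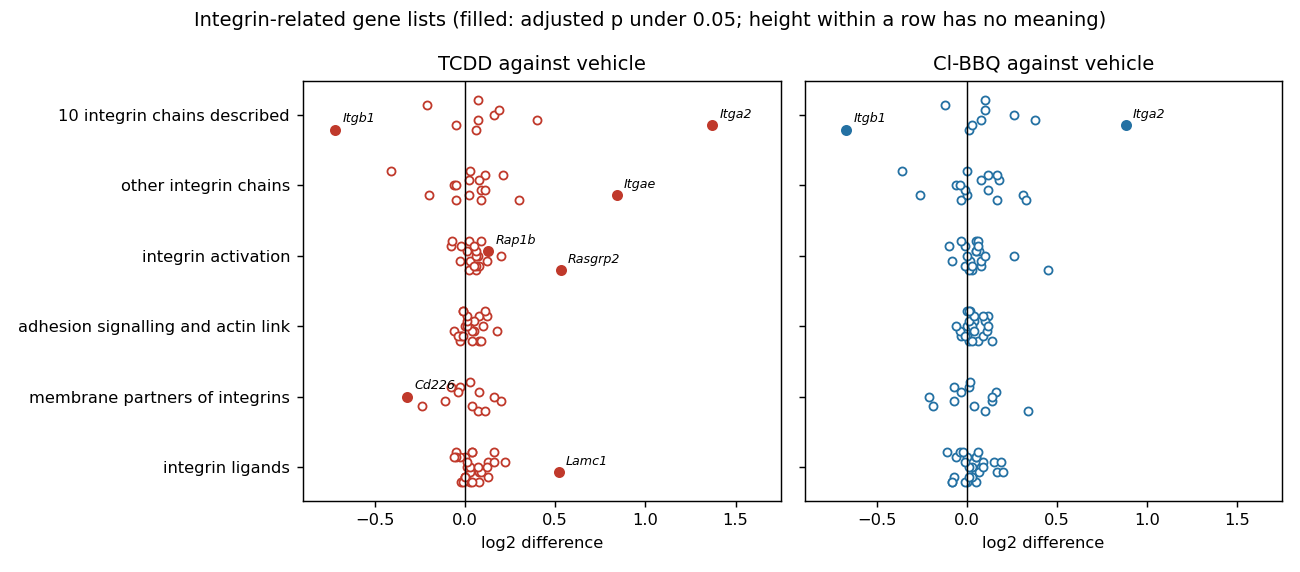
Log2 difference from vehicle (horizontal axis) with TCDD (left) and Cl-BBQ (right) for the 10 integrin chains and for the 5 lists around them; each point is a gene, and filled, named points have an adjusted p under 0.05. Beyond Itgb1 and Itga2, the called genes with TCDD are Itgae, Rasgrp2, Rap1b, Cd226 and Lamc1, and none is called with Cl-BBQ.

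The genes whose level followed Itgb1 and Itga2 most closely were taken by the highest Pearson correlation of log2 values over the 12 arrays among all genes. As the highest of so many, and over arrays that share group differences, these coefficients are descriptions without a test. Closest to Itgb1 was Ctnnal1, a relative of the α-catenins (r = 0.987, Spearman rho = 0.888), and the deviations from the group means correlated at 0.913. Ctnnal1 read 8.49, 8.55, 8.23 and 8.70 in vehicle, 7.66, 7.57, 7.56 and 7.53 with TCDD, and 7.48, 7.77, 7.88 and 7.29 with Cl-BBQ. Its lowest vehicle array and its highest and lowest Cl-BBQ arrays were those of Itgb1. It fell by 0.91 with TCDD and by 0.89 with Cl-BBQ (limma adjusted p = 0.000537 and 0.00889), and the latter difference was −0.98 without Cl-BBQ replicate 3. Next came Rpf1, a ribosome production factor (r = 0.946), and Ccnh, which encodes cyclin H (r = 0.931), with small differences of −0.13 and −0.17 with TCDD that did not pass.

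Closest to Itga2 were Sgms1, a sphingomyelin synthase (r = 0.981, rho = 0.958), Pik3c2a, a lipid kinase (r = 0.972), and Myo1f, an unconventional myosin (r = 0.970). Within groups these 3 correlated with Itga2 at 0.871, 0.848 and 0.808. Sgms1 read 8.65, 8.75, 8.68 and 8.65 in vehicle, 9.06, 9.13, 9.34 and 9.26 with TCDD, and 8.94, 9.19, 8.98 and 8.98 with Cl-BBQ. It rose by 0.51 with TCDD (limma adjusted p = 0.00222), while 0.34 with Cl-BBQ did not pass (adjusted p = 0.125). Myo1f rose by 1.87 and 1.38 (adjusted p = 3.6e-05 and 0.0068), the latter being 1.37 without Cl-BBQ replicate 3, and the difference of Pik3c2a was 0.18 and 0.12, which did not pass. TCDD replicate 3 was the highest array for both Itga2 and Sgms1.

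**Figure D4:**
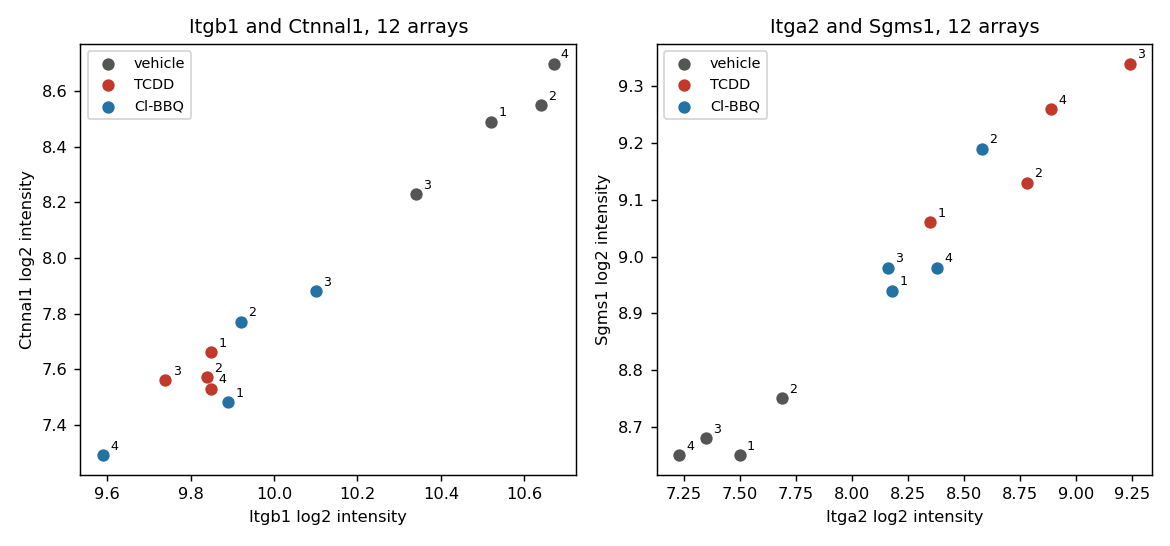
Log2 intensity of Ctnnal1 against Itgb1 (left) and of Sgms1 against Itga2 (right) on the 12 arrays; colours give the group and numbers the replicate. The vehicle arrays lie apart from the treated arrays in both panels (r = 0.987 and r = 0.981 over all arrays), and the Pearson correlation after removing group means is 0.913 and 0.871.

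Several members are also known from other cell types, so markers of those cells were read on the same arrays. Platelet and megakaryocyte markers, relevant to Itga2b and Itgb3, were not called in 7 of 7 measured genes in any comparison, and 0 had an unadjusted p under 0.05 (limma). The log2 of their summed level was 9.47 to 9.67 in vehicle, 9.53 to 9.66 with TCDD and 9.55 to 9.74 with Cl-BBQ, and the platelet chemokine gene Pf4 lay at 4.65 to 4.85 on all arrays. NK markers, relevant to Itga2 and Itga1, were likewise uncalled in 7 of 7 with 0 at an unadjusted p under 0.05. Their summed levels were 9.11 to 9.37, 9.10 to 9.28 and 9.02 to 9.34, and the NK receptor gene Ncr1 lay at 5.50 to 5.91. Single NK genes moved both ways, 3 higher and 4 lower by estimate with TCDD, 2 and 5 with Cl-BBQ. The lowest was Klrb1c (−0.43 with TCDD, −0.29 with Cl-BBQ) and the highest Fcgr3 (0.20 and 0.23).

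In the B cell list 1 of 9 genes was called with TCDD, where 1.24% of all genes were. Cd22, an inhibitory lectin, fell by 0.95 (limma adjusted p = 0.00364), from 7.91, 8.26, 7.59 and 8.52 to 7.06, 7.30, 7.13 and 6.96. With Cl-BBQ it was lower by 0.62 (limma adjusted p = 0.168). An unadjusted p under 0.05 was found for 2 of the 9 with TCDD and 1 with Cl-BBQ, against 8.69% and 7.91% of all genes. The summed B cell level was 9.80 to 10.08 in vehicle, 9.74 to 9.89 with TCDD and 9.78 to 9.85 with Cl-BBQ. This sum includes Cd22, the brightest of the 9 genes in vehicle. The median log2 difference of the 9 was 0 with TCDD and 0.01 with Cl-BBQ, and 5 were higher by estimate with each ligand. Any part of B cells in the fall of Itgb1 was not tested. None of 14 myeloid and dendritic, 4 erythroid or 2 CD8 genes was called in either comparison with vehicle; unadjusted p values under 0.05 numbered 2, 0 and 0 with TCDD and 2, 1 and 0 with Cl-BBQ. Cd8a was higher in vehicle replicate 2 (8.47) than on the other 11 arrays, and Itgb1 and Itga2 kept their calls with both ligands without that array.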

How the data were processed

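The deposited values are log2 intensities that the authors made by robust multi-array average (RMA), per the submitters' processing notes. The log2 scale was read from the values (2.49 to 14.16). Software version, probe library file and the set of arrays normalized together: not given in the sources used here. Labelling from oligo-dT is described in the labels, whereas the probe table is that of a whole-transcript array, which was not settled. Of 35556 probe sets, 21789 carried 1 gene symbol, 1621 several, and 12146 were not listed. Where a gene had several, the one with the highest mean was kept, leaving 19938 genes. The labels call the samples biological replicates.

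All 12 arrays entered 1 fit with limma 3.58.1 under R 4.3.3, using a coefficient per group, empirical Bayes moderation and an intensity trend (9 residual degrees of freedom). Tests were two-sided, with Benjamini-Hochberg adjustment over all genes, and genes were called at an adjusted p under 0.05. The script was tested on simulated data. The number of arrays limits the precision. Promoter windows are RefSeq's (GRCm38.p6), found for 6 of 10 genes. Figures used matplotlib 3.10.9.

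The members and lists were chosen with earlier results of these data known. Named were all 10 genes, called list genes (at most 4 per list by p), called markers, the 3 genes most correlated with each called member, and 5 AhR exposure genes. Alternatives were median centring, quantile normalization, no trend, 2-group fits, array weights, a filter on dim genes, separate probe sets, the replicate number as a block, and each array left out. Deviations of same-numbered TCDD and Cl-BBQ arrays from their group means correlated at 0.606, 0.113, 0.157 and 0.365 over genes. With vehicle 2 of 4 TCDD pairs and 0 of 4 Cl-BBQ pairs exceeded 0.1. Differently numbered pairs were not examined, so these values do not show that a shared number matters. The origin of the numbers is not stated.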

Additional observations from a re-analysis of the deposited data

Results flagged for a closer look

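Of 81 groups of 4 arrays examined for 27 genes, 8 held an array far from the other 3, measured as the gap to its neighbour divided by the range of the group; chance gives about 1 in 20. Among the integrin genes these were TCDD replicate 3 for Itgb1 (9.74 against 9.84 to 9.85; gap 0.906 of the range) and for Itga5 (6.73 against 6.82 to 6.83; 0.834), vehicle replicate 4 for Itga6 (11.34 against 11.47 to 11.48; 0.912) and Cl-BBQ replicate 1 for Itga2b (7.38 against 7.21 to 7.22; 0.960). In each the distance itself was under 0.2 log2 units. Around them, TCDD replicate 1 stood apart for Lamc1 (7.66 against 7.86 to 7.89; 0.869) and for Cyp1b1 (9.67 against 9.91 to 9.92; 0.956).

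Cl-BBQ replicate 3 stood apart for Cyp1b1 (5.93 against 7.89 to 8.24; 0.846) and, in the direction of vehicle, for Cd22 (7.77 against 7.31 to 7.38; 0.844). On the same array Itgb1 was the highest of the Cl-BBQ group, while Itga2 (8.16) was nearly level with replicate 1 (8.18). The response to TCDD exceeded that to Cl-BBQ for Cyp1b1 by 2.37 and for Tiparp, an ADP-ribosyltransferase induced through AhR, by 0.65 log2 units (limma adjusted p = 0.0356 for both). These 2 calls were lost under 8 and 9 of 16 alternatives, with adjusted p up to 0.420, and without Cl-BBQ replicate 3 the difference of Cyp1b1 was 1.85. No integrin chain was called between the ligands, although Itgae differed by 0.52 and Itga2 by 0.49 (limma unadjusted p = 0.00273 and 0.00567).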

How the results depend on the processing

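With TCDD, Itgb1 and Itga2 were called under every alternative. The count of called members rose from 2 to 4 after quantile normalization and with the replicate number as a block, Itgb3 and Itgal being added (adjusted p with the block 0.0389 and 0.0455), while calls over all genes rose from 247 to 333 and 397. It was 3 in the fit of 2 groups, with array weights and with the dim filter (328, 391 and 256 over all genes). It stayed at 2 whichever array was left out (150 to 227). With Cl-BBQ, where 39 of all genes were called, it was 1 without an intensity trend (18 of all genes), 1 in the fit of 2 groups (11), 2 after median centring (24) and with the block (111), and 3 after quantile normalization (93). With arrays left out it ran from 0 to 3: 0 without Cl-BBQ replicate 2 (3 of all genes) or vehicle replicate 4 (4), and 3 without Cl-BBQ replicate 1 (61). Between the ligands it was 0 throughout, the block included, with 0 to 9 called over all genes. Among the other named genes the block added calls for Rasgrp2 and Nqo1 with Cl-BBQ (adjusted p = 0.0129 and 0.00644) and for Nqo1 between the ligands (0.95, adjusted p = 0.0176), and it changed no other call of a named gene.

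Of 477 member values under alternatives, 443 kept direction and call, 9 lost and 9 gained a call, and 16 turned sign, all from values within 0.07 of 0. With Cl-BBQ, Itga1 turned to −0.01 after median centring and −0.02 after quantile normalization, ran from −0.02 to 0.03 with arrays left out, and Itgb2 ran from −0.01 to 0.09. With TCDD, Itga2b ran from 0 to 0.12. Between the ligands, array weights gave 0 for Itgav and 0.05 for Itga2b; with arrays left out Itgav ran from −0.09 to 0.02, Itga2b from −0.09 to 0.03, Itga1 from 0 to 0.10, Itgb3 from −0.06 to 0.10 and Itgb1 from −0.15 to 0.02. Of 816 values of the other named genes, 761 kept direction and call, 35 lost and 17 gained a call, and 3 turned sign, all between the ligands: Ctnnal1 ran from −0.13 to 0.06 and Rpf1 from −0.03 to 0 with arrays left out. The causes were not tested. The filter on dim genes removed Itga1, so it has no value there.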
